A study of Mus musculus with 12 samples.

Results

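Matrix metalloproteinases and their tissue inhibitors were followed in inflamed mouse dorsal skin through 10 genes. The 7 proteinase genes were Mmp2, Mmp3, Mmp9, Mmp11, Mmp12, Mmp13 and Mmp14, and the 3 inhibitor genes were Timp1, Timp2 and Timp3. They were found by symbol among 23282 gene entries, of which 27 carried an Mmp or Timp symbol. Each of the 10 was listed once, and all 10 passed the filter on low counts. Mmp9 was chosen by its measured difference between the groups, being much higher in HF + AD skin, so its levels are given below as a description with no test. The other 9 genes entered for their family, with earlier results of these data known.

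Normal and high-fat diets were compared in wild-type male C57BL/6J mice with atopic-dermatitis-like lesions. All mice were 5 weeks old at the start and received 0.5% 2,4-dinitrochlorobenzene (DNCB), a contact sensitizer, on the dorsal skin 3 times a week for 6 weeks. The AD group (5 mice) ate normal chow, whereas the HF + AD group (7 mice, labelled AD+OB) ate a high-fat diet with 60% of its energy as fat for 10 weeks, 4 of them before DNCB. Skin without DNCB was not analysed here, so each difference below is one between the diet groups within treated skin. The groups also differed in a property of the libraries, given below. Each library came from 1 mouse.

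Matrix metalloproteinases are zinc-dependent proteinases that cut collagens, basement membrane and other proteins of the extracellular matrix. Most are secreted as inactive precursors that other proteinases cleave, and the tissue inhibitors of metalloproteinases (TIMPs) bind and block the active enzymes. In skin they are best known from wound repair, inflammation and tumour growth, where keratinocytes, fibroblasts and leukocytes make different members. Inflammatory cytokines induce several of them through AP-1, a dimer of Fos and Jun proteins. AP-1 binds the sequence TGAGTCA, which reads TGACTCA on the other strand.

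Mmp13, Mmp12 and Mmp3 lie in this order on the plus strand of chromosome 9 (mm10; Mmp13 from 7272514 to 7283331, Mmp12 from 7344381 to 7369499, Mmp3 from 7445822 to 7455975). The first and last of these neighbours were both higher in HF + AD skin. The 100 bases before their start sites are shown because both hold the AP-1 sequence, in capitals (RefSeq start sites, GRCm38.p6, plus strand). They cover chr9:7445722-7445821 for Mmp3 and chr9:7272414-7272513 for Mmp13.
Mmp3: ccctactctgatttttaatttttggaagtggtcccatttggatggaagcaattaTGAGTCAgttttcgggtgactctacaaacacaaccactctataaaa
Mmp13: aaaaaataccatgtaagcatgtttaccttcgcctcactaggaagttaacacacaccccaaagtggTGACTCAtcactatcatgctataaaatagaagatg
The AP-1 sequence began 46 bases before the start of Mmp3 and 35 bases before that of Mmp13. Windows of 300 bases around start sites were searched on both strands (250 before and 50 after, no other motif). Of the 9 windows of 8 genes, 3 held the AP-1 sequence: those of Mmp3, Mmp13 and Mmp12, the last at the second of its 2 start sites. The share over all 32851 windows was 5.2%. Mmp11, Mmp14, Timp1, Timp2 and Timp3 had windows without these letters, and Mmp2 and Mmp9 had no window in the table used. These matches describe letters and no binding was measured.

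Library totals were 9746937 to 11688979 counts in AD and 10726845 to 13462434 in HF + AD mice, and levels are given as CPM, counts scaled to a common library total after TMM correction. A count of 0 allowed a level of up to 0.310 CPM in AD and 0.281 CPM in HF + AD libraries (3 counts, counting error only). The keratinocyte genes Krt5 and Krt14 were at mean levels of 2860 and 763 CPM in AD and 5016 and 1574 CPM in HF + AD libraries. The number of counts that stood for 1 RNA molecule was estimated from genes left at 0, with copies per molecule taken as equal. It was 12.01 to 32.2 in AD and 3.86 to 7.29 in HF + AD libraries. By this estimate 1 molecule gave 1.08 to 3.02 CPM in AD and 0.299 to 0.682 CPM in HF + AD mice. Lower nonzero counts occurred, such as 2 for Mmp3 in AD mouse 2, so the estimate is no fixed value per molecule. Since all AD libraries had more counts per molecule than all HF + AD libraries, this property and the diet cannot be told apart. In bulk skin, fewer cells of a type and less RNA per cell cannot be told apart either.

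Of the 9 genes tested, 3 rose in HF + AD skin (Mmp2, Mmp3 and Mmp13), none fell, and 6 did not pass the test (edgeR quasi-likelihood test, Benjamini-Hochberg adjusted over 14163 genes, threshold 0.05). No gene of the 9 fell by DESeq2 or limma-trend, nor at an unadjusted p under 0.05 by any of the 3 tools. Over all genes tested, 4.43% were higher, 4.77% were lower and 9.2% changed in either direction. The median log2 fold change of the 9 was 0.87, against 0.023 over all genes tested. DESeq2 and limma-trend called 5 and 4 of the 9 higher.

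**Figure D1:**
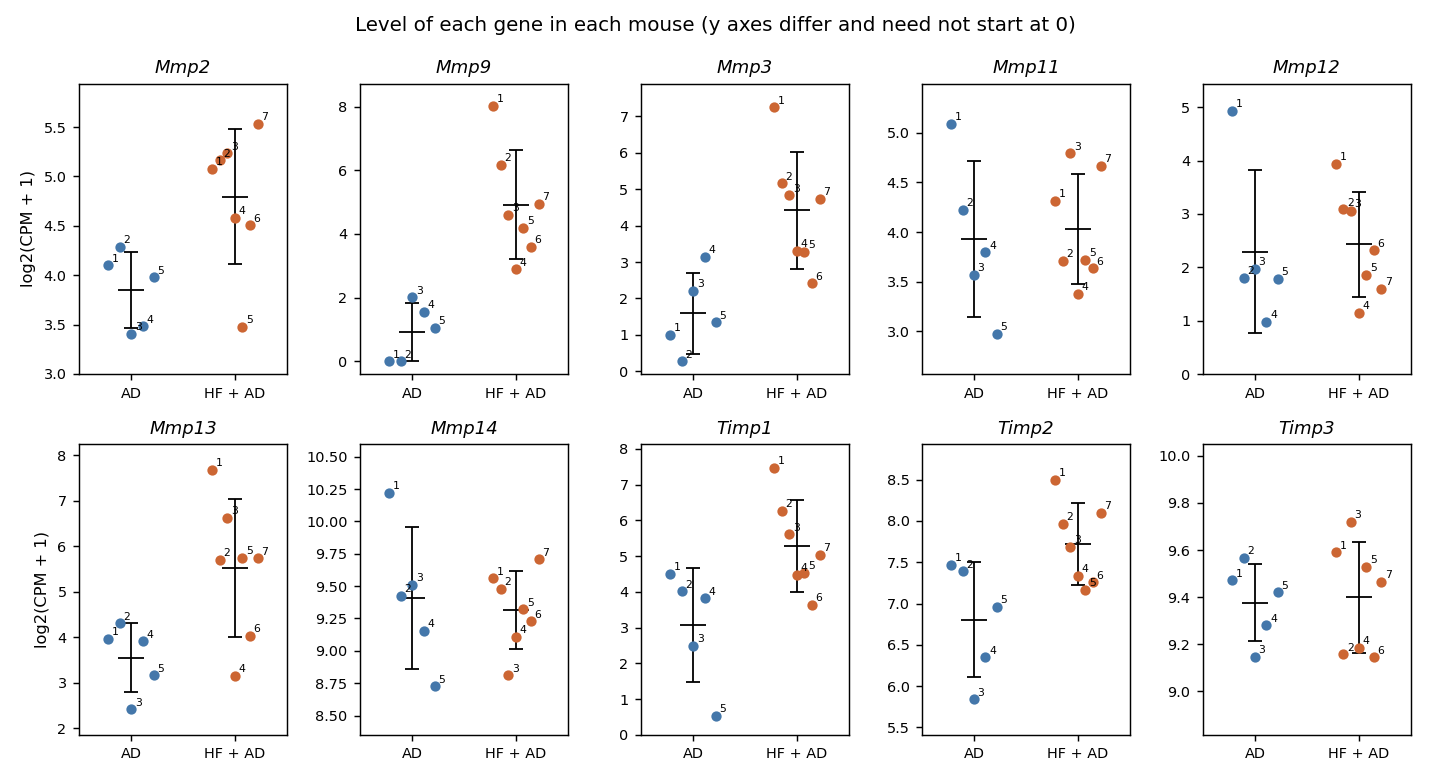
Level of each gene in each mouse as log2(CPM + 1), with the mouse number beside its point and black bars for the mean ± SD (5 AD and 7 HF + AD mice). The groups are apart for Mmp9, whereas for the 9 other genes they overlap. HF + AD mouse 1 is highest in its group for Mmp3, Mmp9, Mmp12, Mmp13, Timp1 and Timp2.

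The gelatinases Mmp2 and Mmp9 degrade denatured collagen and the type IV collagen of basement membranes. Mmp2 is made largely by fibroblasts. It stood at 16.1, 18.5, 9.59, 10.2 and 14.7 CPM in AD mice 1 to 5, and at 32.7, 34.9, 36.6, 22.9, 10.1, 21.7 and 45.3 CPM in HF + AD mice 1 to 7. Only HF + AD mouse 5 lay within the AD range, and the other 6 lay above it. Mmp2 was 2.11-fold higher in HF + AD skin (log2 fold change 1.08 ± 0.32, SE; adjusted p = 0.0414 by edgeR). The exact permutation test on log2(CPM + 1), two-sided over all splits of the 12 mice, gave an unadjusted p of 0.0253. The call was narrow: by edgeR the adjusted p was 0.0872, 0.0845 and 0.0582 without AD mouse 3, 4 or 5. It was 0.0808, 0.0877, 0.0681, 0.0557 and 0.0867 without HF + AD mouse 1, 2, 3, 4 or 7, and it was 0.0623 with limma-trend. The fold change stayed above 0 in all 21 alternative fits.

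Mmp9, the other gelatinase, is made by neutrophils, macrophages and activated keratinocytes. Its raw counts in AD mice 1 to 5 were 0, 0, 30, 22 and 12. In HF + AD mice 1 to 7 they were 3359, 912, 322, 74, 184, 136 and 397. The CPM were 0 to 3.03 in AD and 6.43 to 259 in HF + AD mice, so every HF + AD mouse was above every AD mouse. Of all genes tested, 2.89% were apart in this direction, and 1.56% had a log2 fold change above 2. The fitted log2 fold change of Mmp9 was 5.61 ± 1.07 (SE), or 48.9-fold. With HF + AD mouse 1 left out it was 21.7-fold, and with AD mouse 3 left out it was 75.0-fold. Leaving out AD mice 1 and 2 gave 29.6-fold. The last pair had the most estimated counts per molecule (32.2 and 29.2). By that estimate 1 molecule there stood for 2.92 and 3.02 CPM, about the highest Mmp9 level seen in any AD mouse.

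Within the HF + AD group Mmp9 spanned 40.2-fold from mouse 4 to mouse 1. Mice 1 and 2, with the highest Mmp9, had the fewest counts per molecule (4.07 and 3.86), and mice 4, 5 and 6, with the lowest, had the most (6.31, 7.29 and 6.53). The part of this in the level of Mmp9 was not tested.

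**Figure D2:**
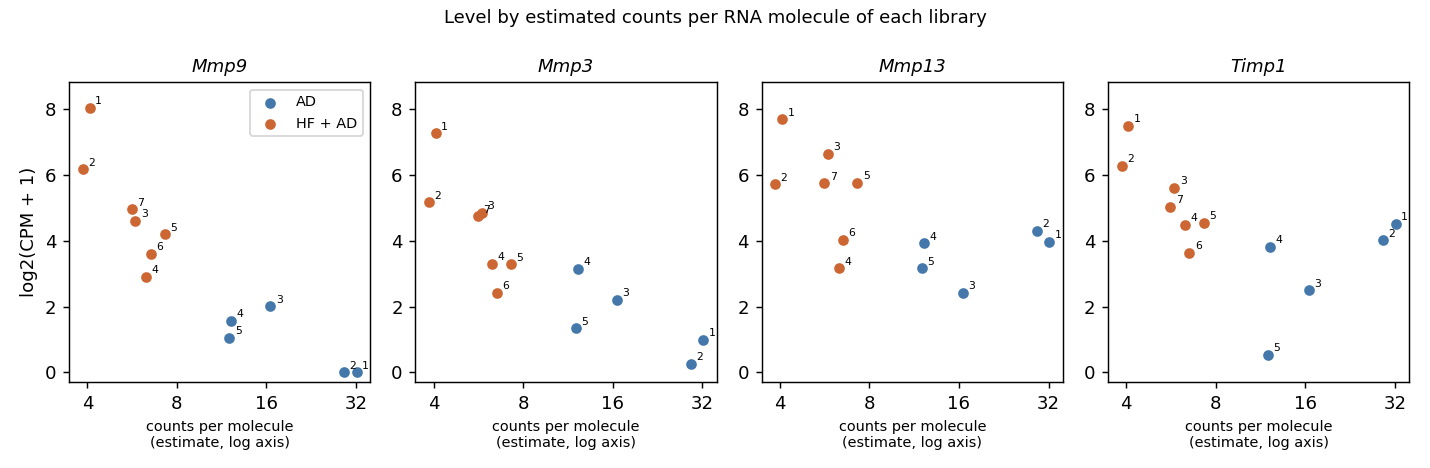
Level of Mmp9, Mmp3, Mmp13 and Timp1, as log2(CPM + 1), against the estimated counts per RNA molecule of each library on a log axis, with mouse numbers. The HF + AD mice lie between 3.86 and 7.29 counts per molecule and the AD mice between 12.01 and 32.2, with no overlap, and mice 1 and 2 of HF + AD lie at the left edge.

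Stromelysin-1, encoded by Mmp3, cleaves proteoglycans, laminin and fibronectin and activates other proenzymes, that of Mmp9 among them. Mmp3 was at 0.997, 0.207, 3.63, 7.87 and 1.54 CPM in AD mice 1 to 5. The HF + AD mice 1 to 7 had 151, 34.9, 27.6, 8.87, 8.70, 4.32 and 25.6 CPM. HF + AD mouse 6 fell below AD mouse 4, and the other 6 HF + AD mice were above every AD mouse. Mmp3 was 13-fold higher (log2 fold change 3.70 ± 0.89, SE; adjusted p = 0.0186 by edgeR; exact permutation p = 0.00631, unadjusted). Leaving out HF + AD mouse 1 gave a fold of 6.40, and leaving out AD mouse 4 gave 23.3, both still called. Without AD mice 1 and 2 it was 8.55 and the adjusted p by edgeR was 0.0650.

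Collagenase-3, encoded by Mmp13, is the main interstitial collagenase of the mouse and cuts fibrillar collagen. Its levels were 14.6, 18.7, 4.34, 14.1 and 7.96 CPM in AD mice 1 to 5 and 203, 51.2, 97.8, 7.91, 52.6, 15.3 and 52.3 CPM in HF + AD mice 1 to 7. Mice 4 and 6 of HF + AD lay within the AD range and the other 5 lay above it. Mmp13 was 5.75-fold higher (log2 fold change 2.52 ± 0.62, SE; adjusted p = 0.0203 by edgeR; exact permutation p = 0.0290, unadjusted). Leaving out any 1 mouse kept this call.

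For Mmp11, Mmp12 and Mmp14 no difference was detected. Mmp11 encodes stromelysin-3, which is activated inside the cell by furin. It was at 33.0, 17.7, 10.9, 12.9 and 6.87 CPM in AD mice 1 to 5, and at 9.39 to 26.7 CPM (median 12.2) in HF + AD mice. All 7 HF + AD mice lay within the AD range, and the log2 fold change was 0.016 ± 0.37 (SE; adjusted p = 0.986 by edgeR). Its exons overlap those of Chchd10 on the opposite strand, which had 947 to 2432 counts, and the strand setting of the counting is not given in the sources used here.

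Mmp12 encodes macrophage elastase, which cleaves elastin. Its level was 29.5 CPM in AD mouse 1 and 0.972 to 2.93 CPM in the other 4 AD mice. The HF + AD mice spanned 1.22 to 14.4 CPM (median 4.00). The log2 fold change was -0.46 ± 0.77 (SE; adjusted p = 0.765 by edgeR), and without AD mouse 1 it was 1.34. The summed level of 10 macrophage markers was also highest among AD mice in mouse 1, at 209 CPM against 43.2 to 75.4 CPM in the other 4. So were the sums of most other cell types examined, fibroblasts and adipocytes among them (1574 and 624 CPM). In HF + AD mouse 1, with the most Mmp12, the macrophage sum ranked 3 of 7 at 242 CPM. Mmp12 exons overlap those of Mmp1b on the opposite strand, which had at most 69 counts.

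Mmp14 encodes a membrane-anchored proteinase that activates the Mmp2 proenzyme together with TIMP2. It was at 1190, 686, 728, 568.1 and 423 CPM in AD mice 1 to 5 and at 448 to 835 CPM (median 639) in HF + AD mice. The log2 fold change was -0.15 ± 0.21 (SE; adjusted p = 0.714 by edgeR).

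None of the 3 inhibitors passed the test, although 2 had an unadjusted p under 0.05 (edgeR). DESeq2 and limma-trend each called both of these, Timp1 and Timp2, higher. Timp1 encodes a secreted inhibitor that also binds the Mmp9 proenzyme. It was at 21.7, 15.1, 4.64, 13.1 and 0.452 CPM in AD mice 1 to 5 and at 177, 76.2, 47.8, 21.3, 22.2, 11.4 and 31.7 CPM in HF + AD mice 1 to 7. Mice 4 and 6 of HF + AD lay within the AD range and the other 5 lay above it. The log2 fold change was 2.33 ± 0.72 (SE; adjusted p = 0.0507 by edgeR; exact permutation p = 0.0202, unadjusted), or 5.04-fold, and the fold was 3.19 without HF + AD mouse 1. Leaving out AD mouse 1 gave an adjusted p of 0.0347 by edgeR. The value was 0.0432 when HF + AD mouse 5 was left out and 0.0426 when HF + AD mouse 6 was. Without AD mice 1 and 2 the fold was 9.11 and the adjusted p was 0.0451.

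Timp2 encodes the inhibitor that links the Mmp2 proenzyme to the Mmp14 protein. Its levels were 176, 167, 56.4, 80.4 and 124 CPM in AD mice 1 to 5 and 143 to 360 CPM (median 205) in HF + AD mice. Mice 1, 2, 3 and 7 of HF + AD were above every AD mouse. The log2 fold change was 0.87 ± 0.28 (SE; adjusted p = 0.0626 by edgeR; exact permutation p = 0.0253, unadjusted). Leaving out AD mouse 1 gave an adjusted p of 0.0326 by edgeR, and leaving out HF + AD mouse 5 gave 0.0448.

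Timp3 encodes an inhibitor that stays bound to the matrix and also blocks ADAM proteinases. It was the steadiest of the 10 genes in HF + AD mice, with 1.49-fold between the lowest and the highest mouse. Levels were 566 to 757 CPM in AD and 565 to 843 CPM in HF + AD mice, and the log2 fold change was 0.031 ± 0.13 (SE; adjusted p = 0.919 by edgeR). Its exons overlap those of Syn3 on the opposite strand, which had 61 to 281 counts.

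**Figure D3:**
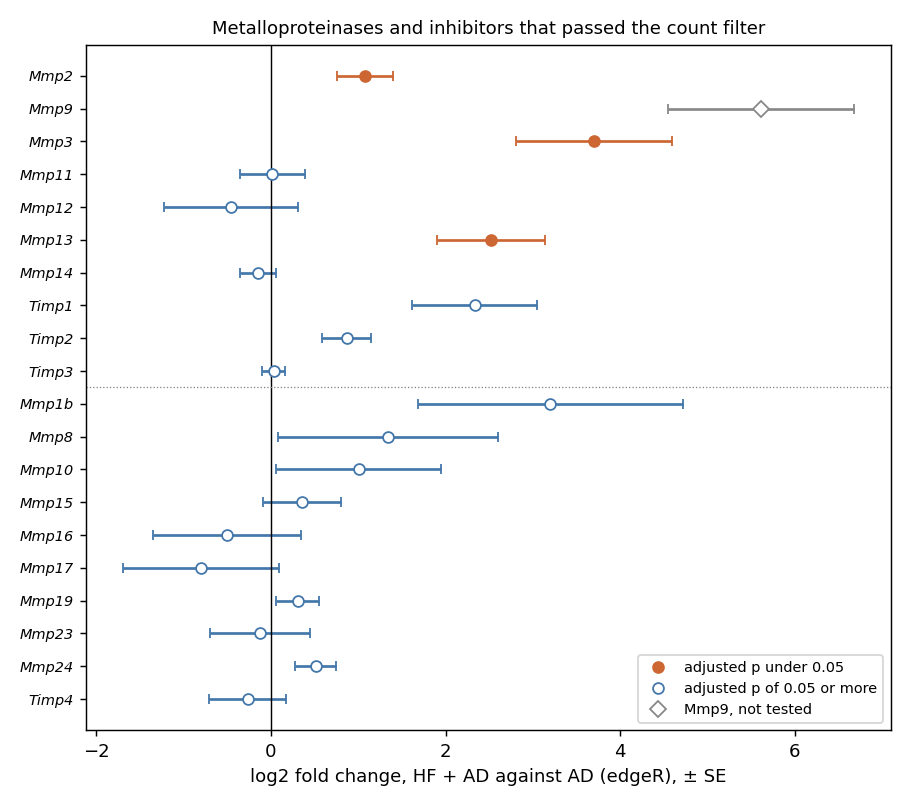
Log2 fold change of HF + AD against AD (edgeR) with its SE for the 10 genes, above the dotted line, and for 10 further family genes that passed the filter, below it. Filled points passed the test (Mmp2, Mmp3 and Mmp13), open points did not, and the diamond marks Mmp9, which was not tested.

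Outside the 10 genes, 16 further Mmp genes and 4 inhibitors (Timp4, Reck, A2m and Tfpi2) were examined. Of these 20, 10 passed the filter and none was called by edgeR, DESeq2 or limma-trend. At an unadjusted p under 0.05 there were 2 by edgeR, 2 by DESeq2 and 0 by limma-trend. The median log2 fold change of the 10 was 0.33. The edgeR pair was Mmp1b (3.20 ± 1.52 on the log2 scale, SE; adjusted p = 0.199) and Mmp24 (0.51 ± 0.24; adjusted p = 0.184).

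The neutrophil collagenase Mmp8 had 0, 0, 0, 31 and 20 counts in AD mice 1 to 5 and 0 to 69 counts in HF + AD mice (log2 fold change 1.34 ± 1.26, SE; adjusted p = 0.554 by edgeR). Mmp10, which encodes stromelysin-2, had 0 to 62 counts in AD and 3 to 133 in HF + AD mice (1.01 ± 0.95; adjusted p = 0.557 by edgeR). Timp4 had 38 to 258 and 63 to 186 counts (-0.26 ± 0.44; adjusted p = 0.762 by edgeR). Mmp7 and A2m had no count in any mouse. Among the genes below the filter, Mmp27 (named after its values were seen) had 0 counts in all 5 AD mice and 1 to 18 counts in 6 of 7 HF + AD mice. By the estimate above, 1 molecule gave 12.01 to 32.2 counts in AD libraries.

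Levels of the 10 genes were also compared with each other across the 7 HF + AD mice. Of the 45 pairs, 44 (97.8%) had a Pearson r above 0 for log2(CPM + 1), with a median of 0.57, against 50% of all pairs among 13200 genes with a mean count of at least 20. Pairs with Mmp9 are described with no test. The r of each pair was set against an exact permutation test over all orders of the mice, two-sided. The adjustment ran over all 45 pairs, those with Mmp9 included. Of the other 36 pairs, the r of 2 had an adjusted p under 0.05 by this test, and the Spearman rho of 0 did. The closest pair was the proteinase Mmp3 with the inhibitor Timp1 (r = 0.977, exact p = 0.000397, adjusted p = 0.0179; rho = 0.964, exact p = 0.00278, adjusted p = 0.125). Its r was 0.902 without mice 1 and 6.

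The other pair was Mmp3 with Timp2, which had an r of 0.938 (exact permutation p = 0.00337, adjusted p = 0.0380). Its rho was 0.857 (exact permutation p = 0.0238, adjusted p = 0.214), and its r was 0.90 without mice 1 and 6. The adjusted p of this r was lowered by Mmp9 pairs of equal or smaller p, so it is not read as a call. Mmp9 had an r of 0.930 with Mmp3 (rho = 0.857), and 0.845 without mice 1 and 6. With Timp1 its r was 0.930 (rho = 0.929), and 0.918 without mice 1 and 4. The single pair below 0 was Mmp14 with Timp3 (r = -0.14). HF + AD mouse 1 was highest for Mmp3, Mmp9, Timp1 and Timp2, and mice 4, 5 and 6 had the lowest levels. The counts per molecule ran the other way, being lowest in mice 1 and 2 and highest in mice 4, 5 and 6. Their part was not tested.

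**Figure D4:**
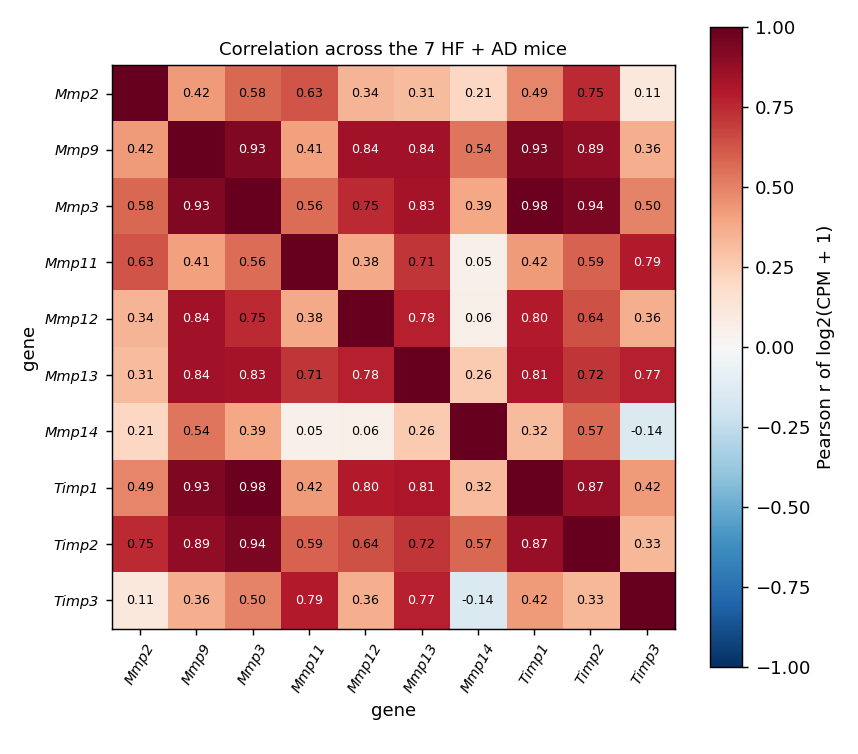
Pearson r of log2(CPM + 1) between each pair of the 10 genes over the 7 HF + AD mice, printed in each cell. Mmp3, Mmp9, Timp1 and Timp2 have r from 0.87 to 0.98 among themselves, whereas Mmp14 stays at or below 0.57 with every other gene.

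The pattern of Mmp9 was also set beside 13199 genes with a mean count of at least 20, after removing the group means, over all 12 mice. Mmp3 came first by Pearson r (0.91), and Fermt1, which encodes the integrin activator kindlin-1 of keratinocytes, came second (0.88). They were followed by Il18rap, an interleukin-18 receptor chain (0.87), Thumpd2 (0.87) and Lrat, which esterifies retinol (0.87). These are the top ranks of a search and carry no test. Among the other members, Mmp13 ranked 314 (0.60), Timp1 970 (0.47), Mmp12 2745 (0.29), Timp2 3456 (0.24) and Mmp2 4116 (0.20). Mmp14, Timp3 and Mmp11 ranked 5203, 5551 and 6429 (0.12, 0.10 and 0.042).

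Genes that act with the proteinases mostly did not pass the test. Nor did most genes at large: 9.2% of all genes tested passed in either direction (edgeR). In the list of 11 activators and plasminogen-system genes, 8 were tested, 0 rose and 1 fell (edgeR). The 1 that fell was Serpine2, an inhibitor of thrombin and plasminogen activators (112 and 66.2 mean CPM in AD and HF + AD; log2 fold change -0.76 ± 0.17, SE; adjusted p = 0.0123). Furin, which activates Mmp11 and Mmp14 precursors, did not pass (-0.54 ± 0.21, SE; adjusted p = 0.125 by edgeR).

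Among 9 AP-1 and ETS transcription factors, Junb fell (266 and 184 mean CPM; log2 fold change -0.53 ± 0.14, SE; adjusted p = 0.0269 by edgeR) and 8 did not pass, Fos and Jun among them (0.057 and -0.013). Of 10 matrix substrates, 1 rose: Col4a2, a chain of the type IV collagen of basement membranes (39.8 and 93.0 mean CPM; 1.23 ± 0.24; adjusted p = 0.00833 by edgeR). The interstitial collagen genes Col1a1, Col1a2 and Col3a1 had log2 fold changes of -0.45, 0.25 and 0.80 and did not pass.

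Of 7 cytokines known to induce or hold down metalloproteinase genes, 6 were tested. edgeR called 0 of them, with 1 at an unadjusted p under 0.05, and DESeq2 and limma-trend each called 1. The 1 was Osm, encoding oncostatin M (0 to 10 counts in AD and 1 to 96 in HF + AD mice; log2 fold change 4.11 ± 1.35, SE; adjusted p = 0.0654 by edgeR). Il1b and Tnf differed by 0.12 ± 0.54 and 0.84 ± 0.99 on the log2 scale. Of 18 ADAM and ADAMTS proteinases, edgeR called 0, with 5 lower and 0 higher at an unadjusted p under 0.05. DESeq2 called 2 lower and limma-trend called 0. The list's median log2 fold change was -0.41, against 0.023 over all genes tested.

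**Figure D5:**
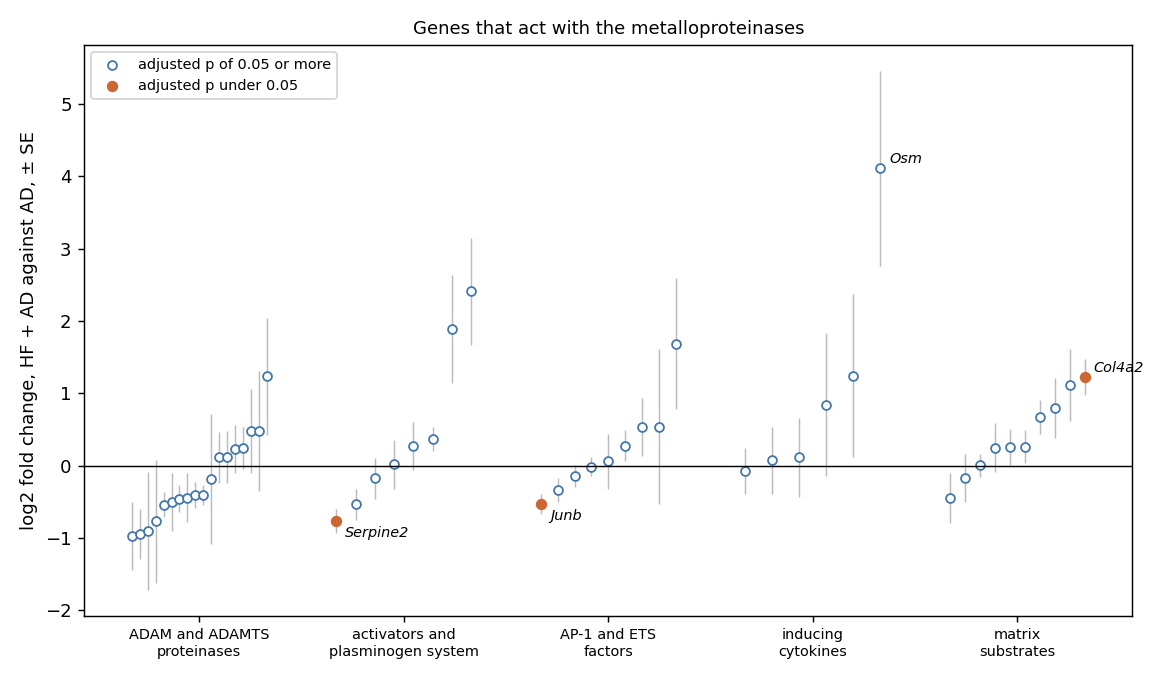
Log2 fold change of HF + AD against AD with its SE for each tested gene of 5 lists, sorted within a list. Filled points passed the test: Serpine2 and Junb were lower and Col4a2 was higher.

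Markers of the cells that make these enzymes were measured in the same fit (edgeR calls). Beside the calls below, 4.43% of all genes tested were higher and 4.77% were lower. Of the 12 neutrophil markers, 5 were tested and 0 called, with 2 higher and 2 lower at an unadjusted p under 0.05 (DESeq2 called 1 higher and limma-trend 0). The granule genes Mpo, Elane, Ngp, Ltf and Camp had at most 14 counts in any mouse, Ly6g was not analysed here, and Cxcr2 had 3 to 21 counts in AD and 5 to 90 in HF + AD mice. The summed neutrophil list, mostly S100a8 and S100a9, which keratinocytes also express, was 3721 CPM in AD mouse 1, 215 to 381 CPM in the other 4 AD mice and 132 to 573 CPM in HF + AD mice. Among the latter it was highest in mouse 1, which also had the most Mmp9. The summed basal keratinocyte, hyperproliferative epidermis and endothelial markers were highest in that mouse as well. Sums of the other cell types examined, macrophages among them, were highest in other HF + AD mice.

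All 10 macrophage markers were tested and 0 were called by edgeR, with 3 higher at an unadjusted p under 0.05. Their median log2 fold change was 0.94, against 0.023 over all genes tested. DESeq2 and limma-trend called 0 as well, with 2 and 5 at an unadjusted p under 0.05. Their summed level was 43.2 to 209 CPM in AD and 69.1 to 320 CPM in HF + AD mice. Fibroblast markers summed to 782 to 1574 CPM and 789 to 2061 CPM, with 0 of 8 called by any of the 3 tools and 1 at an unadjusted p under 0.05 by edgeR.

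Of the 6 basal keratinocyte markers, the keratins Krt5, Krt14 and Krt15 rose (DESeq2 and limma-trend each called 3 as well). Itga6, Itgb4 and Trp63 did not pass (0.14, 0.39 and -0.29 on the log2 scale; adjusted p = 0.564, 0.236 and 0.331 by edgeR). The summed level of the 6, most of it from Krt5 and Krt14, was 3541 to 5297 CPM in AD and 6245 to 10900 CPM in HF + AD mice, with no overlap. Of the 5 endothelial markers 2 rose, Cdh5 and Kdr (1.56 ± 0.42 and 1.06 ± 0.27 on the log2 scale, SE; adjusted p = 0.0284 and 0.0243), and their sums overlapped. Of the 6 hair-shaft genes 3 rose, and of the 5 skeletal muscle genes Acta1 fell (-0.72 ± 0.22; adjusted p = 0.0481). edgeR called 0 of the mast cell, T cell, suprabasal keratinocyte, hyperproliferative epidermis and adipocyte markers, with 1, 1, 0, 0 and 0 at an unadjusted p under 0.05. DESeq2 called 1 mast cell marker, and the other counts by DESeq2 and limma-trend were 0 in these 5 lists. Whether a change in the makeup of the skin took part in the levels of the metalloproteinases was not tested.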

How the data were processed

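RNA of mouse dorsal skin was sequenced from the 3′ end (Lexogen QuantSeq), with 1 library per mouse. The authors deposited raw counts per gene symbol for each of the 12 mice, and Bowtie2, bedtools and mm10 are named in the submitters' processing notes without roles. Strand setting and annotation are not given in the sources used here. Groups came from the sample labels. All genes were fitted with edgeR 4.0.16 (TMM scaling, filterByExpr, quasi-likelihood test, Benjamini-Hochberg adjustment, threshold 0.05) in R 4.3.3, after tests on simulated data. DESeq2 1.42.0 and limma 3.58.1 served as alternatives. Single genes were compared with exact permutation tests on log2(CPM + 1). CPM used library totals times TMM factors (0.944 to 1.04).

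The number of counts behind 1 molecule was estimated library by library. Genes expected to have 10 to 200 counts from the other mice of the group were taken, and the estimate is the number of counts per molecule that would give their observed share of zeros. Differences between mice raise it, and copies per molecule were taken as equal. Reads without molecular identifiers are not independent molecules, so floors cover counting error only. Positions are from GENCODE M21 and promoters from RefSeq.

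The members and gene lists were chosen with earlier results of these data known. Named genes were the 10 members, Mmp8, Mmp10 and Timp4, up to 4 called genes per list by size of fold change, the markers needed for cell types, and the 5 genes most like Mmp9. Alternatives covered scaling, filters, tool, pseudocount, replicate block, counts divided by counts per molecule and leaving out each mouse. Leaving out AD mice 1 and 2 was added after seeing the data. Protein sequences were not used here.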

Additional observations from a re-analysis of the deposited data

Results flagged for a closer look

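Of 20 groups of values examined (10 genes in 2 groups), 1 held a value far from the others by Dixon's criterion, which chance gives in about 1 of 20 groups. It was Mmp12 in AD mouse 1, at 4.93 on the log2(CPM + 1) scale against 0.98 to 1.97 in the other 4 AD mice, a gap of 0.749 of the whole range. The same mouse was highest in its group for Mmp11, Mmp14, Timp1 and Timp2, and its sums of macrophage and neutrophil markers were 209 and 3721 CPM. Among AD mice it was also highest for the summed mast cell, T cell, fibroblast, endothelial and adipocyte markers. The same held for suprabasal keratinocyte and hyperproliferative epidermis markers, but not for basal keratinocyte, skeletal muscle or hair-shaft markers. The part of these in the level of Mmp12 was not tested.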

How the results depend on the processing

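Low AD levels limit Mmp9 (0 to 3.03 CPM) and Mmp3 (0.207 to 7.87 CPM). By the estimate, 1 molecule stood for 1.08 to 3.02 CPM in AD libraries, although lower nonzero levels of Mmp3 occurred. Main counts were 1303 genes called, 3 of the 9 members and 3 genes of the supporting lists. Members called were 5 with library totals alone, 5 with DESeq2 and 5 with counts divided by counts per molecule. Supporting genes called were 8 with DESeq2, 5 with limma-trend, 5 with counts divided by counts per molecule and 6 without AD mice 1 and 2, where Mmp3 lost its call. Leaving out 1 mouse gave 639 (without HF + AD mouse 2) to 1461 genes (without HF + AD mouse 5), 2 to 5 members and 2 to 7 supporting genes. There were 803 genes when AD mouse 2 was left out, and 686 and 794 for HF + AD mice 1 and 4. Members numbered 5 when AD mouse 1 or HF + AD mouse 5 was left out, and supporting genes 7 and 6. The cause of these shifts was not tested beyond the fewer mice or other tool.

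The numbers of the mice did not pair them: deviations of same-numbered mice correlated at -0.12 to 0.083, 0 of 5 pairs were over 0.1, and 1 of 5 AD mice correlated best with its own number. The replicate block left 192 genes called, 1 member (Timp1, adjusted p = 0.0335) and 0 supporting genes by edgeR, and HF + AD mice 6 and 7 add nothing to that fit.

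No called member changed direction. Of the genes not called, Mmp12 turned to a log2 fold change of 0.22 with limma-trend, 0.46 with the replicate block and 1.40 without AD mice 1 and 2, and Mmp14 to 0.18 with the latter. Leaving out 1 mouse put 4 genes on both sides of 0: Mmp11 from -0.16 to 0.45, Mmp12 from -0.90 to 1.34, Mmp14 from -0.28 to 0.11 and Timp3 from -0.030 to 0.082. Their differences in mean log2(CPM + 1) then ran from -0.14 to 0.39, -0.19 to 0.80, -0.26 to 0.11 and -0.036 to 0.069. With a pseudocount of 0.1 the mean difference of Mmp9 was 5.59 against 3.99. Mmp3, Mmp9 and Timp1 had no value under the filter of at least 10 counts in every mouse, and Mmp12 had none with counts divided by counts per molecule.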
